A study of Solanum virginianum with 2 samples.

Results

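The families described here are the miRNAs that plants are known to adjust to their supply of copper, sulfate and phosphate, namely miR395, miR397, miR398, miR399, miR408, miR827 and miR857. Members were chosen by name alone: each listed small RNA whose name carries 1 of these 7 family numbers was taken, which gave 23 of the 686 sequences in the small RNA table. The names covered 5 of the 7 families. No listed name carried miR395, the sulfate family, or miR857, so the copper families miR397, miR398 and miR408 and the phosphate families miR399 and miR827 remained.

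The study sequenced small RNAs and RNA 5′ ends (degradome) from pistils of the field-grown long purple eggplant line 'B3-3', whose plants carry both short-styled (S-morph) and long-styled (L-morph) flowers. The labels give flower buds of 1 to 3 and 3 to 6 days after budding for both libraries, whereas their extraction protocol describes the degradome as made from 6 samples of both morphs at phases 1, 2 and 5, the last of these at 13 to 15 days. No treatment is given. The title names Solanum melongena and the organism field Solanum virginianum. There was 1 library per assay, each a mixture of both morphs, so neither morphs nor stages were compared and no test between conditions was possible. In all, 135737 reads were listed for the small RNAs, and 18764 predicted small RNA and transcript pairs for the degradome, the sequencing of 5′ ends left by RNA cleavage. Ranges in parentheses after a share are 95% intervals by the exact Clopper-Pearson method. Reads were amplified and carry no molecular identifiers, so an interval on reads describes their counting and nothing else. Intervals on sequences or pairs treat these as independent draws. Related sequences and pairs at the same site are not independent, so the widths are only a rough guide. Neither table holds transcript levels, so the pistil label was not checked against marker genes.

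As background, the copper families of Arabidopsis accumulate when copper is scarce and lower the levels of dispensable copper proteins, which leaves copper for plastocyanin and other essential uses. There miR398 acts on Cu/Zn superoxide dismutases and their copper chaperone, miR397 and miR857 on laccases of the cell wall, and miR408 on plantacyanin and laccases. Plantacyanin is a small blue copper protein of the cell wall that has been linked to pollen tube guidance in Arabidopsis pistils. When phosphate is scarce, miR399 lowers PHO2, a ubiquitin-conjugating enzyme that limits phosphate uptake and loading, and miR827 acts on genes of the SPX class. When sulfate is scarce, miR395 acts on ATP sulfurylases and a sulfate transporter.

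The sequences below are the mature forms of the 5 families. They are shown because forms of the same family differ only by small changes in bases or ends, which are described below. They run 5′ to 3′ as deposited, and capitals mark bases 2 to 8, the seed.
nta-miR408: uGCACUGCcucuucccuggcu
nta-miR408_R+1: uGCACUGCcucuucccuggcuu
gma-miR408a-3p_L-1R+4: uGCACUGCcucuucccuggcuuuu
bdi-miR398a: uGUGUUCUcaggucgccccug
nta-miR398_1ss14CT: uGUGUUCUcagguugccccug
vvi-miR398a_L+1R-1: uUGUGUUCucaggucaccccu
nta-miR398_L+1R-1_1ss3GA: aUAUGUUCucaggucgccccu
sly-miR397_R+1: aUUGAGUGcagcguugaugac
vvi-miR397a_L-1R+1: cAUUGAGUgcagcguugauga
nta-miR399a: cGCCAAAGgagagcugcccug
sly-miR399: uGCCAAAGgagaguugcccua
vvi-miR399a: uGCCAAAGgagaauugcccug
vvi-miR399b: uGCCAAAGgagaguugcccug
nta-miR827: uUAGAUGAacaucaacaaaca
The first letters of each name stand for the plant of the closest known miRNA, and the codes after it for added, removed or substituted bases. The 23 members held 17 distinct seeds, of which 3 were shared by several members: GCACUGC by the 3 miR408 forms, GCCAAAG by the 4 miR399 forms and GUGUUCU by a pair of miR398 forms. None of the seeds occurred in more than 1 family.

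The members, taken by name, were a small share of the library, and miR408 supplied most of their reads. Of the listed reads 1249 were theirs, which is 0.920% (0.870 to 0.972%). The miR408 family had 832 reads (0.613%, 0.572 to 0.656%), which was 66.6% of all member reads. The miR398 family had 304 reads (0.224%, 0.200 to 0.251%), and miR397 had 78 (0.0575%, 0.0454 to 0.0717%). The phosphate families were lower, with 23 reads for miR399 and 12 for miR827. The intervals of miR408, miR398 and miR397 did not overlap each other, whereas those of miR399 (0.0107 to 0.0254%) and miR827 (0.00457 to 0.0154%) did. Among the 77 families named in the table miR408 ranked 19, next to miR894 with 828 reads, a difference within counting error. The miR398 family ranked 29, miR397 36, miR399 45 and miR827 48.

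**Figure D1:**
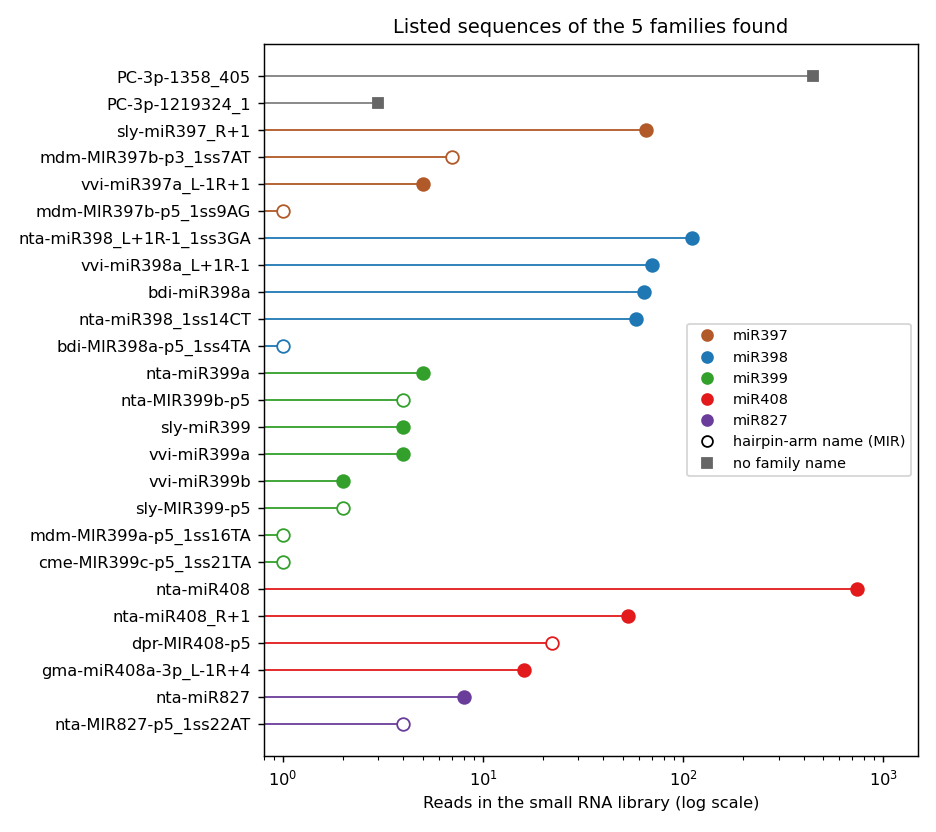
Reads of each of the 23 members in the small RNA library (log axis), coloured by family, with open circles for names of a hairpin arm, and grey squares for a pair of sequences without a family name that share 12 bases with miR398. The 741 reads of nta-miR408 stand above all others, and the 4 mature miR398 forms lie close together between 58 and 111 reads.

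The families differed in how their reads were spread over named variants. In miR408 the 21 nt form nta-miR408 alone had 741 reads, 89.1% of the family. The same sequence with 1 added U at the 3′ end had 53 reads and the 24 nt form with 3 added U had 16, and all 3 forms began at the same base. In miR397 the form sly-miR397_R+1 had 65 reads and vvi-miR397a_L-1R+1, which starts 1 nt earlier and is otherwise the same over 20 bases, had 5.

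Among the sequences named miR398 no form stood out, though an unnamed relative, described below, had 448 reads. The 4 mature forms had 111, 70, 64 and 58 reads, or 19.1 to 36.5% of the family each. Relative to bdi-miR398a, with positions counted from 1 at its 5′ end, nta-miR398_1ss14CT carried C14U. The form vvi-miR398a_L+1R-1 started 1 nt earlier and carried G15A, and nta-miR398_L+1R-1_1ss3GA started 1 nt earlier and carried G2A. The 4 miR399 forms had only 2 to 5 reads each, so their order cannot be read. Relative to vvi-miR399b they carried G21A (sly-miR399), G13A (vvi-miR399a) or U1C and U14C (nta-miR399a). Whether these forms come from separate genes was not tested.

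Outside the names, the table held a sequence close to miR398 that was more abundant than the named family. The sequence PC-3p-1358_405, to which the authors gave no family, had 448 reads (0.330% of the listed reads) and ranked 39 among all 686 sequences. The named miR398 sequences together had 304 reads. It is identical over 20 bases to nta-miR398_L+1R-1_1ss3GA, starts 1 nt later, and differs from bdi-miR398a by G2A and G21A. A second sequence without a family, PC-3p-1219324_1, had 3 reads and is bdi-miR398a with 4 more bases at the 3′ end.
PC-3p-1358_405: uAUGUUCUcaggucgccccua
PC-3p-1219324_1: uGUGUUCUcaggucgccccugucgc
These were found by a stretch of 12 bases shared with any member, a search made after the data were seen, and no other unnamed sequence had one. With both counted, miR398 would hold 755 reads, close to the 832 of miR408, which would then no longer supply most of the reads.

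The members were mostly 21 nt long, the usual length of plant miRNAs. Of the 23 members 17 were 21 nt long (73.9%, 51.6 to 89.8%), against 182 of all 686 sequences (26.5%, 23.3 to 30.0%). By reads, 93.8% of the member reads were 21 nt long (92.4 to 95.1%) and 36.8% of all listed reads. U was the first base of 82.5% of the member reads (80.3 to 84.6%) and of 79.0% of all listed reads (78.8 to 79.2%). Members are included in these totals, and related sequences are not independent.

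Names of the MIR type mark a piece of a known hairpin that is not its annotated mature miRNA, and 9 of the 23 members had one. They held 43 reads, 3.44% of the member reads. The largest was dpr-MIR408-p5 with 22 reads, against 810 for the 3 mature miR408 forms. In the miR827 family the arm had 4 reads and the mature form 8, and in miR399 the 4 arms had 8 reads together and the 4 mature forms 15. Of the 9 arms 6 formed 15 or more pairs with a mature form of their family, as the strands of a miRNA duplex do. Counting A-U, G-C and G-U pairs without gaps, mdm-MIR399a-p5_1ss16TA formed 19 pairs with vvi-miR399b, mdm-MIR397b-p3_1ss7AT formed 18 with vvi-miR397a_L-1R+1 and nta-MIR827-p5_1ss22AT formed 17 with nta-miR827, and 0 of 663 listed sequences outside the families formed as many in each case. The arm dpr-MIR408-p5 formed 15 pairs with nta-miR408, which 3 of the 663 reached. The other 3 formed 12 or fewer. Of these, cme-MIR399c-p5_1ss21TA formed 8 pairs with vvi-miR399b, a number that 653 of the 663 reached, and most of it alternates between A and U. The arm names come from hairpins of the same families, so pairing is likely from the naming and gives no separate evidence of a duplex.

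The next question was which transcripts the members were predicted to target. Predicted pairs were listed for 19 of the 23 members, 666 in all on 644 transcripts. Each pair carries an alignment score by the authors between 0 and 4, a low score standing for few mismatches. The median score was 4 for the members and 3.5 over all 18764 pairs. Most of the member pairs came from a pair of short arm sequences with 1 read each. They are shown because the counts below turn on them.
bdi-MIR398a-p5_1ss4TA: gAAAUGGGaacacauga
mdm-MIR397b-p5_1ss9AG: gAAGAAACgucauugagu
The 17 nt bdi-MIR398a-p5_1ss4TA had 393 predicted transcripts, rank 12 among the 509 small RNAs with a pair, and the 18 nt mdm-MIR397b-p5_1ss9AG had 122. Together these made 515 of the 666 pairs (77.3%). The last 8 bases of the latter are the first 8 of vvi-miR397a_L-1R+1. The other 17 members with pairs had 1 to 28 each and 151 in all.

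**Figure D2:**
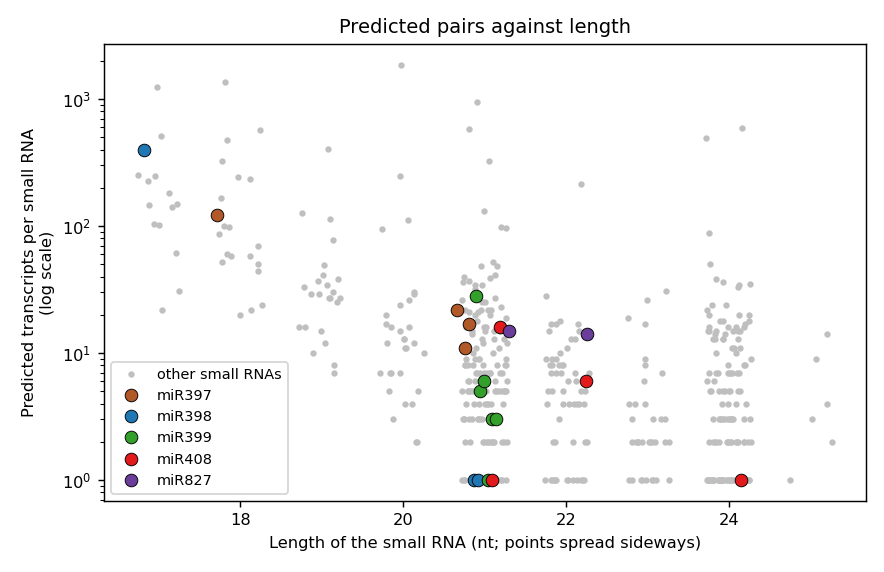
Number of predicted transcripts of each of the 509 small RNAs with a predicted pair (log axis) against its length in nt, with the members coloured by family and points spread sideways. The 393 pairs of the 17 nt miR398 arm and the 122 pairs of the 18 nt miR397 arm lie above the other members, which have 28 or fewer.

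In the whole table, 36 of the 509 small RNAs with a pair were of 17 or 18 nt (7.07%), and they made 8065 of all 18764 pairs (43.0%). Their median was 113 pairs, beside 6 for the longer ones, although the highest number, 1859, belonged to a 20 nt sequence, ptc-MIR6426b-p5. Many predicted transcripts of the miR398 arm were of retroelements, mobile elements that copy themselves through RNA. Of its 393 pairs 199 (50.6%, 45.6 to 55.7%) had a retroelement symbol such as pol, TY3B-I or Tf2-1 or a GO term of reverse transcription or DNA integration. The share was 22.5% (16.1 to 30.0%) for the 17 members outside the pair of short arms and 24.5% (23.9 to 25.1%) over all pairs. Copies of an element can be matched together, so these pairs are not independent and the intervals do not measure a difference between the shares. Its 5 annotated transcripts of lowest score, all at score 1, carried TY3B-G, pol or TY3B-I. Its pair with the laccase LAC1 (Sme2.5_00140.1_g00016.1) had a score of 4.

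The predictions of both mature miR397 forms were largely of 1 kind. All 11 pairs of sly-miR397_R+1 were on laccase transcripts, as were 13 of the 17 pairs of vvi-miR397a_L-1R+1, whose remaining 4 had a score of 4. Laccases are multicopper oxidases that join phenolics into lignin and related polymers of the cell wall. The 13 transcripts were 3 with the symbol LAC11, 3 with IRX12, 2 with LAC12, 2 with LAC17 and 1 each with LAC3, LAC4 and LAC7. IRX12 is another name of LAC4 in Arabidopsis, where LAC4, LAC11 and LAC17 act in stem lignification. All 13 carried the GO term laccase activity, and 5 carried lignin biosynthetic process. Their annotation column reads otherwise, with nitrite reductase (NO-forming) for 11, L-ascorbate oxidase for 1 and none for 1, so they were recognised by symbol and GO term. Of all 19 laccase transcripts in the table, by symbol or GO term, 16 were predicted for members.

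The form of miR397 that starts 1 nt earlier aligned better to most, though not all, laccases. Of the 11 transcripts predicted for both forms, the score was lower with vvi-miR397a_L-1R+1 in 7 and with sly-miR397_R+1 in 4. The lowest score was 1.5, reached by the vvi form on LAC17 (Sme2.5_00094.1_g00006.1), LAC7 (Sme2.5_09778.1_g00004.1) and a pair of LAC11 transcripts (Sme2.5_10244.1_g00003.1 and Sme2.5_15685.1_g00001.1), where the sly form had scores of 2 on LAC7 and 3 on the others. The reverse held for LAC12 (Sme2.5_10888.1_g00002.1), with 3.5 for the vvi form and 2 for the sly form, and for IRX12 (Sme2.5_02906.1_g00004.1), with 3 and 2. The better aligned form was thus often the rarer one, with 5 reads against 65.

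The miR397 sites lay at like places in the transcripts. In 11 of the 13 transcripts the alignment of the vvi form started between nucleotides 494 and 677 of the deposited transcript. The exceptions were LAC17 (Sme2.5_00094.1_g00006.1) at nucleotide 2030 and LAC3 (Sme2.5_00295.1_g00004.1) at nucleotide 4451. In all 13 the start left a remainder of 2 when divided by 3. Over the 9375 annotated pairs of small RNAs outside the families, 35.6% of the starts left that remainder. The laccases are related genes, so these 13 sites are not independent of each other.

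**Figure D3:**
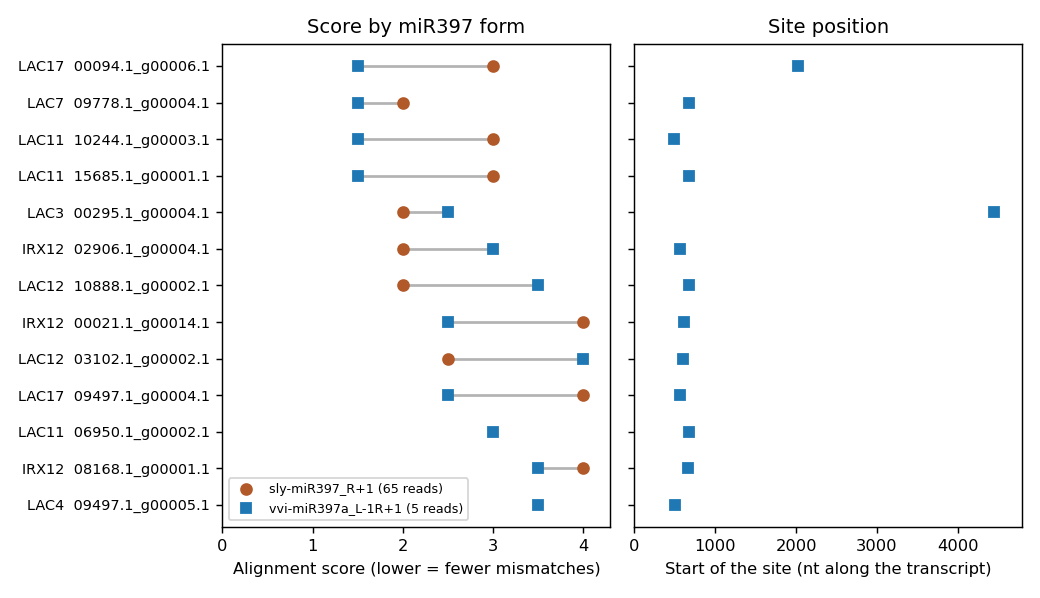
Left, alignment score (0 to 4, low for few mismatches) of the 13 laccase transcripts with sly-miR397_R+1 (circles, 65 reads) and vvi-miR397a_L-1R+1 (squares, 5 reads), joined where both were predicted. Right, start of the vvi site in nt along the transcript. In 7 of 11 transcripts the squares lie lower, and 11 of the 13 sites start between nucleotides 494 and 677.

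The other families had few predicted transcripts of the kinds known for them in other plants. The mature miR408 forms had 23 pairs on 16 transcripts, among them a pair of LAC12 transcripts (Sme2.5_04615.1_g00006.1, start at nucleotide 107, and Sme2.5_20670.1_g00001.1, start at nucleotide 109), both with a score of 4. Plantacyanin was not matched: no pair analysed here carried that word, basic blue protein or uclacyanin. Other named transcripts of miR408 were PAA2, described below, and an alpha-1,6-mannosyltransferase (Sme2.5_02605.1_g00005.1), both with a lowest score of 3. A pair of transcripts without symbol or annotation (Sme2.5_11232.1_g00004.1 and Sme2.5_20107.1_g00001.1) had 2.5. Of the next by score, AtMg00820 and GIP had 3.5 and TY3B-I had 4.

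The mature miR398 forms had only 2 pairs. One was PG1 (Sme2.5_00196.1_g00014.1), annotated as a pectin-degrading galacturonidase, with a score of 3.5 for nta-miR398_1ss14CT. The other was an enolase-phosphatase E1 transcript, described below. The forms bdi-miR398a and vvi-miR398a_L+1R-1, with 64 and 70 reads, had none. A Cu/Zn superoxide dismutase transcript (SODCP.2, Sme2.5_10699.1_g00003.1) stood in the table, but for an unnamed 24 nt sequence and not for miR398.

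The mature miR399 forms had 7 pairs on 5 transcripts. PLDBETA1 (Sme2.5_01395.1_g00005.1), a phospholipase D, was predicted for vvi-miR399a with a score of 3 and for vvi-miR399b with 4. DYAD (Sme2.5_07899.1_g00003.1), whose Arabidopsis namesake acts in meiosis, was predicted for nta-miR399a with 3.5 and for vvi-miR399b with 4. No pair analysed here carried the symbol PHO2 or UBC24. A pair of transcripts with the same kind of annotation, ubiquitin-conjugating enzyme E2, was predicted for small RNAs outside the families. Of these, UBC23 (Sme2.5_00427.1_g00015.1) was detected for ath-MIR414-p3_1ss15AG with 4 raw reads and a p by the authors of 0.587, and UBC25 (Sme2.5_00515.1_g00015.1) was not detected. The mature miR827 had 15 pairs, all with a score of 4. They included ANTR5 (Sme2.5_27642.1_g00001.1), annotated as an inorganic phosphate cotransporter. None was named as an SPX gene by annotation or symbol, but only 7 of the 15 pairs carried either. PG1 and DYAD were chosen after their values were seen.

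The degradome was read next for cleavage at these sites. Of the 666 member pairs 8 were called detected by the authors (1.20%, 0.520 to 2.35%), and 5.38% of all 18764 predicted pairs were. Without the pair of short arms it was 4 of 151 (2.65%, 0.726 to 6.64%). Of these 4 pairs, 3 rest on the same reads on PAA2. Among sequences of 20 to 22 nt, 3 of 150 member pairs were detected (2.00%, 0.414 to 5.73%), beside 8.91% of all pairs of that length. Few sequences supply many of the 7067 pairs behind that share, such as ptc-MIR6426b-p5 with 1859 and csi-MIR396c-p3_1ss11TC with 938. The 8 pairs lay at 6 sites on 6 transcripts, with 1 to 3 raw reads each. All detected pairs of the table had a median of 1 raw read and a highest value of 754. Categories rank a site by its signal on the transcript, 0 being the strongest in the usual scheme. In categories 0 to 2 were 4 of the 666 member pairs (0.601%), all in category 2, beside 2.45% of all predicted pairs. Of the detected pairs alone these were 4 of 8 for the members and 459 of 1010 in all (45.4%). Of all 1010 detected pairs 128 were in category 0 or 1. A p by the authors of at most 0.05 stood for 0 of the 666 member pairs and for 0.661% of all predicted pairs. Of the detected pairs alone these were 0 of 8 and 124 of 1010 (12.3%). Transcript levels were not measured, so a site without reads can be uncut or on a transcript that was scarce, and these cannot be told apart.

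The copper transporter PAA2 was the only detected transcript of miR408. PAA2 (Sme2.5_02483.1_g00007.1, annotated as a Cu2+-exporting ATPase) is named after the Arabidopsis pump of the thylakoid membrane that delivers copper to plastocyanin. It had 2 raw reads at nucleotide 2162, in category 2, and also 2 normalized reads. Normalized reads below the raw reads are taken here as reads that also match other places, which the header does not state. All 3 mature miR408 forms pointed to this position and to the same reads. They are therefore 1 observation. The score was 3 for nta-miR408 (nucleotides 2151 to 2172), 3.5 for nta-miR408_R+1 (2150 to 2172) and 4 for gma-miR408a-3p_L-1R+4 (2148 to 2172), so the score was higher in the longer forms. The p by the authors was 0.17, 0.22 and 0.0699 in that order. The alignment took up 22 nt of transcript for the 21 nt miRNA, and the reads began 10 nt before its end, as in 50 of all 1010 detected pairs, while 923 had 9 nt. No small RNA outside the family was predicted on PAA2. Of the 6 transcripts annotated as Cu2+-exporting ATPase in the table, PAA2 alone was detected. The others were predicted only for small RNAs outside the families, so their lack of detection says nothing about miR408.

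The only detected site of the mature miR398 forms was in a gene of methionine salvage. The enolase-phosphatase E1 transcript (Sme2.5_01078.1_g00005.1), which encodes an enzyme that recycles the methylthio group left over from ethylene and polyamine synthesis, had 3 raw reads at nucleotide 1230 for nta-miR398_L+1R-1_1ss3GA. They lay in category 2 with a score of 4 and a p by the authors of 0.0699. The normalized reads were 1.5, fewer than the raw reads. The unnamed PC-3p-1358_405, with 448 reads, was predicted on the same transcript at nucleotides 1219 to 1238, also with a score of 4, and was not called detected. Its alignment ends 1 nt before that of the named form (1220 to 1239). The value 0.0699 was the lowest p of any of the 331 pairs in category 2, where 7 pairs had it. Those 7 pairs had 2 to 14 raw reads, so this p does not rank the sites by their reads.

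The other 4 detected pairs belonged to the pair of short arms with 1 read each. The miR398 arm had 2 raw reads on each of a pair of RPL24 transcripts, which encode a protein of the large ribosomal subunit, at nucleotide 124 of Sme2.5_00162.1_g00007.1 and nucleotide 118 of Sme2.5_03432.1_g00008.1. The normalized reads were 1 on each. The same arm had 1 raw read on CALS10 (Sme2.5_00482.1_g00003.1), a callose synthase, at nucleotide 1363. The miR397 arm had 1 raw read on an enoyl-CoA hydratase transcript (Sme2.5_06189.1_g00009.1) at nucleotide 106. Their p by the authors ran from 0.589 to 1.

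**Figure D4:**
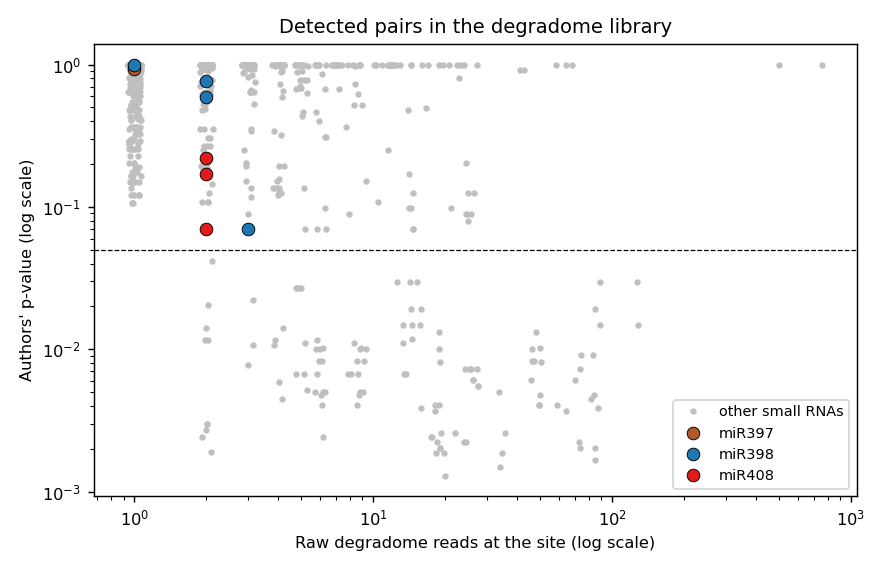
Raw degradome reads at the site (log axis) against the p-value given by the authors (log axis) for all 1010 detected pairs, with the 8 member pairs coloured by family and a dashed line at 0.05. The member pairs have 1 to 3 reads and lie above the line, the lowest at 0.0699 for miR408 on PAA2 and for miR398 on the enolase-phosphatase transcript.

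Among the 13 laccases of miR397 and the 2 of miR408, 0 pairs were detected. For miR397 these were 11 pairs of sly-miR397_R+1 and 13 of vvi-miR397a_L-1R+1. Of all predicted pairs of 20 to 22 nt sequences 8.91% were detected, and so few pairs on related transcripts cannot show a difference from that share. The scores of miR397 reached 1.5, and the lowest score of a detected member pair was 3. The wider copper, sulfate and phosphate lists, which count every small RNA in the table, gave the setting. Of 42 transcripts of copper proteins, 18 were predicted for members, namely 16 laccases, PAA2 and the copper transporter COPT2. Of these, COPT2 and the laccase LAC1 were paired only with the short arms of 1 read each, both at a score of 4. Of the 42, 2 were detected: PAA2, and SKU5 (Sme2.5_06478.1_g00004.1), annotated as L-ascorbate oxidase, with 2 raw reads for an unnamed sequence. The list is loose: AGO4 and RPP13L4 entered through the annotation primary-amine oxidase, which their symbols do not match, and FSD2 is annotated as an Fe-Mn superoxide dismutase. Of 8 transcripts of the sulfate and sulfur list, which also holds S-adenosylmethionine synthetases (SAM2), 0 were predicted for members and 0 were detected. Of 9 phosphate transcripts, a list without the ubiquitin-conjugating enzymes given above, 1, ANTR5, was predicted for a member and 0 were detected. The phosphate transporter PHT1-4, SPX1 and 4 purple acid phosphatases (PAP4, PAP16, PAP18 and PAP27) were paired with small RNAs outside the families.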

How the data were processed

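The authors deposited read counts per distinct small RNA sequence, from Illumina TruSeq libraries per the labels' protocols. For the degradome, made after German and colleagues per the labels' protocols, the authors deposited an alignment score per pair, raw read counts at the cleavage position, normalized reads and TPB (both signal values), a category and a p-value per detected pair, taken as unadjusted. TPB was not used further. The programs and the genome build are not given in the sources used here.

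Members were matched by family number in the name. The members, word lists and searches were chosen with earlier results of these data known, and symbol patterns (such as COPT, PAP and IRX12) and the word Cu2+-exporting ATPase were added with the symbols in view. Named were, per family, sequences with at least 10 reads or the most abundant one, predicted textbook transcripts, detected pairs and up to 5 other annotated transcripts of lowest score; other miRNA forms and pairs were added after their values were seen. No test was made, as there was 1 library per assay. Variants were aligned without gaps, and the functions were tested on simulated sequences. The 135737 listed reads are the depth used, and reads of the library outside that list were not analysed here. Scripts ran in Python 3.11.15, with SciPy 1.17.1 for intervals, pandas 2.3.3 and NumPy 2.4.6 for tables and Matplotlib 3.10.9 for plots.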

Additional observations from a re-analysis of the deposited data

How the results depend on the processing

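The share of member reads, 0.920%, was 1.18% without names matching ribosomal or transfer RNA in the total and 1.25% with the pair of unnamed miR398-like sequences, and stayed within its interval without PC names or with members of 20 to 22 nt. Of the 23 sequences 9 had at least 10 reads. At scores of at most 3 the 666 pairs fell to 186 and the 644 transcripts to 179, and without the pair of short arms to 151 and 131. Of the 8 detected pairs, 4 were in categories 0 to 2, 5 had undivided reads, 3 had a score of at most 3, 4 remained without the short arms, and 0 had a p by the authors of at most 0.05. The 12 textbook transcripts, all with LAC symbols, were 0 by annotation alone and 15 with IRX12. At scores of at most 3 the copper, sulfate and phosphate lists held 20, 3 and 2 transcripts in place of 42, 8 and 9. The settings on unnamed sequences, short arms, IRX12 and the lists were added after the data were seen. No paired analysis was possible because each assay had 1 library. With 1 to 3 reads per site, the degradome depth cannot rank these sites.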

Other observations

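A transcript of the sulfate pathway drew a group of related unnamed sequences. The sulfate adenylyltransferase (ATP sulfurylase) transcript APS1 (Sme2.5_03071.1_g00002.1) makes the first activated form of sulfate, and ATP sulfurylases are the textbook targets of miR395, which no listed name carried. It was predicted for 4 sequences of 23 or 24 nt whose names begin with PC, with 14 reads in all. Their alignments overlapped between nucleotides 1294 and 1321, with scores of 2.5 to 4, and 0 of the 4 pairs were detected. Another transcript with the symbol APS1 but no annotation (Sme2.5_01588.1_g00005.1) was paired with an unnamed 18 nt sequence that had 70 predicted pairs. That transcript entered the sulfate list by its symbol alone, so its function is not established here. The 4 sequences had 7 to 31 predicted pairs each, so Sme2.5_03071.1_g00002.1 was not their only prediction. Whether they act in place of miR395 was not tested. Of the 4, the sequence of lowest score, with 4 reads, is shown with bases 2 to 8 in capitals.
PC-3p-535593_2: aAGAGUCCgagcaacauagaucua

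At the PAA2 site the p by the authors did not follow the alignment scores. The form with the highest score, gma-miR408a-3p_L-1R+4 at 4, had the lowest p, 0.0699, and it had 1 predicted pair. The forms with scores of 3 and 3.5 had p of 0.17 and 0.22 and 16 and 6 predicted pairs. The value 0.0699 also stood for the miR398 form on the enolase-phosphatase transcript, which again had 1 predicted pair.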
